A study of Mus musculus with 8 samples.

Results

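The genes described here are the listed enzymes of cholesterol and fatty acid synthesis together with the SREBP proteins that control them and 1 sterol carrier, measured in kidney cortex of mice labelled wild-type or null for Sav1. They were chosen by symbol alone from the deposited expression table. Of the 34 listed symbols, 33 have a row among 21705 gene names, and all 33 passed the filter on low values. Hmgcs1 was not analysed here. They comprise 15 sterol enzymes, 5 SREBP regulators, the sterol carrier Stard4 and 12 fatty acid enzymes. The study sequenced poly(A) RNA from bulk kidney cortex of mice on a mixed background strain. One group of 4 libraries is labelled Sav1+/+ and received vehicle, and the other group of 4 is labelled Sav1-/- and received tamoxifen. Sav1 encodes a scaffold protein of the Hippo kinase pathway. The labels give no age, no promoter or cell type for the deletion and no deleted exon, and they do not state whether each library came from its own animal. If the libraries share animals, the p-values measure a spread that may be technical.

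Cholesterol is built from acetyl-CoA through mevalonate and isoprenoid units to squalene, which is closed into lanosterol and trimmed stepwise to cholesterol. Fatty acids are built from cytosolic acetyl-CoA by acetyl-CoA carboxylase and fatty acid synthase, and are then lengthened by ELOVL elongases and given double bonds by SCD and FADS desaturases. Both routes are transcribed under SREBP factors, which SCAP escorts from the endoplasmic reticulum to the Golgi for cleavage and which INSIG proteins hold back when sterols are plentiful. In kidney cortex most RNA comes from proximal tubule cells, which burn fatty acids for fuel.

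SREBP sites usually lie close to a CCAAT box, the sequence bound by NF-Y, and many of these genes hold such a box just before their start. The 150 bases before the start are shown for 3 genes that rose in the Sav1-null libraries (Pmvk, Elovl5, Elovl6) and 3 that fell (Mvd, Idi1, Ebp), chosen after their values were seen. Each runs 5′ to 3′ on the strand of the gene, from the RefSeq table of build GRCm38.p6, and capitals mark CCAAT or its reverse complement ATTGG. The windows are chr3:89454391-89454540 (+) for the more upstream of the Pmvk starts, chr9:77917215-77917364 (+) for Elovl5 and chr3:129532236-129532385 (+) for Elovl6. Those of the genes that fell are chr8:122443423-122443572 (-) for Mvd, chr13:8885456-8885605 (+) for Idi1 and chrX:8193513-8193662 (-) for Ebp.
Pmvk: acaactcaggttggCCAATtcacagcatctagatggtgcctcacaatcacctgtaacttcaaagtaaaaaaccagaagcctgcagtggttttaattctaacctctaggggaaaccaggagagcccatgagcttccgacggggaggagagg
Elovl5: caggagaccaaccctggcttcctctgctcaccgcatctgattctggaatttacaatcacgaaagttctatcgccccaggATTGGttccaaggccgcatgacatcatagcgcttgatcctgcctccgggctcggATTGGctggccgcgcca
Elovl6: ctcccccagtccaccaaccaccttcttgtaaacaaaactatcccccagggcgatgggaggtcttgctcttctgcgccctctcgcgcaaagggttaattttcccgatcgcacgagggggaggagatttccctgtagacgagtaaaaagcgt
Mvd: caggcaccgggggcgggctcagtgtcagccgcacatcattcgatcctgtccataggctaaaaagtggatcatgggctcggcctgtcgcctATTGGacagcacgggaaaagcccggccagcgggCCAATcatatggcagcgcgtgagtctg
Idi1: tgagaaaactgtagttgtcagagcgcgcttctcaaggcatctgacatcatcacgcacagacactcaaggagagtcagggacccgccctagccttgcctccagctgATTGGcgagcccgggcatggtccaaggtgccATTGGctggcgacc
Ebp: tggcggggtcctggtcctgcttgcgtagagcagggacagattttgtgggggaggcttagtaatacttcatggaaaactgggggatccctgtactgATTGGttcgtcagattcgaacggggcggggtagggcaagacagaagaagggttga
Genes of both directions carried the box, and neither the Elovl6 stretch nor the 150 bases before the other Pmvk start carried one.

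RefSeq windows of 250 bases before to 50 bases after the start were matched for 26 of the 33 genes. Fdps, Fdft1, Sqle, Stard4, Scd1, Scd2 and Fads1 had no entry. CCAAT, searched on both strands, occurred in a window of 20 of the 26 genes (76.9%) against 41.1% of 27025 genes with a window. It was present in 4 of 6 genes that rose, 9 of 12 that fell and 7 of 8 that were not called. GGGCGG, the Sp1 box, occurred in 20 of 26 (76.9%) against 38.2% of all genes, in 3 of 6 that rose, 12 of 12 that fell and 5 of 8 not called. The E-box CACGTG occurred in 5 of 26 (19.2%) against 8.09%. The classical sterol regulatory element, searched as TCACNCCAC, was found in 0 of 26 genes against 1.44% of all genes. These counts describe letters in the windows only, and in 1 window matches of different motifs overlapped. The 27025 genes were not limited to the genes tested here, whereas all 26 passed the filter on low values. Genes could have more than 1 window: 35 for the 26 genes and 32851 for all. The shares therefore differ in the genes compared as well, and whether the pathway itself differs was not tested.

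The 4 wild-type libraries held about 20500000 to 25000000 reads and the 4 Sav1-null libraries about 15700000 to 20900000, as read from the step that 1 read makes in the low values. Values are the authors' RSEM signal, scaled per library and not per gene length, so levels are compared within a gene only. A value of 2.34 to 3.09 corresponds to 3 reads, far below the level of every gene described here. Sav1 itself read 1504, 1743, 959 and 1193 in the wild-type libraries and 983, 914, 982 and 714 in the Sav1-null libraries, and wild-type replicate 3 lay below 2 Sav1-null libraries. Its level was lower in the Sav1-null group (log2 fold change -0.56 ± 0.19 SE, limma adjusted p = 0.0220), and the exact permutation test over the 70 assignments of the 8 libraries gave p = 0.0857 (two-sided). This call was lost without wild-type replicate 1 (limma adjusted p = 0.0613), without wild-type replicate 2 (0.0571) and when library totals were set equal (0.376). Xist read between 9280 and 16095 in all 4 Sav1-null libraries and at most 0.988 in any wild-type library, while 4 of 4 Y-linked genes were called lower. Genotype, treatment and sex-chromosome transcripts thus separate the same libraries and cannot be told apart. The column headers also differ in form between the groups and repeat the same sample indices in both. Any batch that followed the groups could not be told apart from them either.

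Summed levels of markers differed between the groups for several cell types and overlapped for others. Loop and distal nephron markers summed to 84895 to 88186 in wild-type and 46107 to 96202 in Sav1-null libraries. Endothelium markers summed to 2377 to 2843 in wild-type and 912 to 2434 in Sav1-null libraries, so both lists overlapped. The 12 proximal tubule markers summed to between 1239080 and 1364450 in wild-type libraries and between 53904 and 168462 in Sav1-null ones. Of these, 11 of 12 were called lower and none was at 0. Kap, named after its values were seen, made up most of the wild-type sums. It read 765290 to 937318 in wild-type and 1099 to 25344 in Sav1-null libraries, so the sums overstate the fall of the other markers. The 8 injured tubule markers summed to 16777 to 37499 and 517937 to 833042, with 8 of 8 called higher. Macrophage and dendritic cell markers (9 of 9 higher) summed to 1082 to 1916 and 7562 to 10528. Dividing cell markers (6 of 7 higher) summed to 486 to 1106 and 2030 to 2687. Collecting duct markers (4 of 7 higher, 1 lower) summed to 8194 to 10467 and 14996 to 24400. Fibroblast markers (6 of 8 higher), lymphocyte markers (5 of 5 tested higher), podocyte markers (1 of 5 higher, 3 lower), hepatocyte markers (1 of 5 tested higher, 3 lower), endothelium markers (1 of 6 lower) and loop and distal nephron markers (1 of 6 higher, 1 lower) completed the lists. Among all tested genes 43.9% were called higher and 25.2% lower, and the counts of called markers are descriptions beside those shares. The share of these marker shifts in the results below was not tested. In bulk tissue, fewer cells of a type and less RNA per cell cannot be told apart. Several markers of fat and adrenal cortex, tissues that use these pathways heavily, were at or near 0, and others were not. The markers of these tissues that are named here were chosen after their values were seen. Adipoq and Plin1 held at most 1 read in any library, and Lep and Retn were at 0 in all 8. Cidec read at most 0.838 in wild-type and 3.91 to 12.6 in Sav1-null libraries. Fabp4 read 309 to 370 in wild-type and 194 to 578 in Sav1-null libraries, and Pparg 11.3 to 52.8 and 8.80 to 20.3. These were the 2 tested adipocyte markers out of 9, and 0 of them were called (sums of the list 321 to 385 and 226 to 609). Among 7 adrenal cortex markers Cyp11b1 and Cyp11b2 were at 0 in all 8 libraries and Cyp11a1 held at most 2 reads. Of the 2 tested, Star was called higher (36.4 to 56.2 in wild-type and 54.1 to 76.6 in Sav1-null libraries). Akr1b7 was called lower (36.9 to 65.3 and 0.984 to 23.7). The list summed to 78.5 to 122 and 56.1 to 104.

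Genes of the pathway were called in both directions. Of the 33 genes, 11 were higher in the Sav1-null libraries (33.3%), 13 were lower (39.4%) and 9 were not called, at a limma adjusted p under 0.05 over 13677 tested genes. Among all tested genes 43.9% were called higher, 25.2% lower and 69.1% in either direction, so the 72.7% of the pathway called is near the background and is no result about the pathway. Folds are the log2 fold changes of log2(value + 1) turned back to a linear scale. The groups did not overlap for 19 of the 33, against 65.2% of all tested genes, in either direction. The median log2 fold change of the 33 genes was -0.10, and that of all tested genes was 0.23. Rescaling by the median of ratios moved the all-gene median by -0.22, quantile normalization by -0.26 and equal library totals by 0.38. The split of calls moved with it: 11 higher and 13 lower as deposited became 7 and 15, 10 and 14, and 14 and 5 in that order, while the higher share of all calls went from 63.5% to 49.9%, 48.3% and 81.7%. Under all 19 alternatives 12 of the 24 calls were kept: Pmvk, Fdps, Fdft1, Elovl5, Elovl6, Fads1 and Scd2 higher, and Acat2, Mvd, Idi1, Ebp and Fads2 lower.

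**Figure D1:**
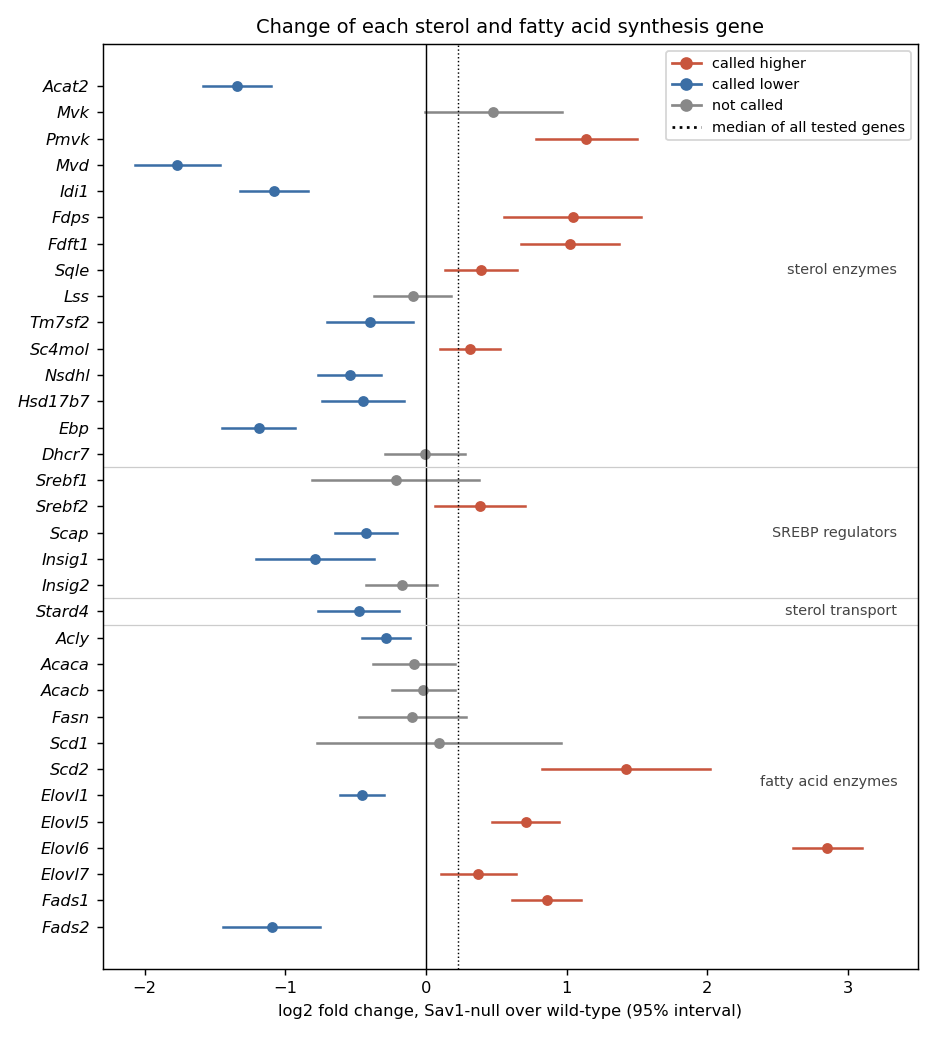
Log2 fold change (Sav1-null over wild-type, x axis) with its 95% interval for each of the 33 genes, grouped by role from precursor supply at the top to desaturation at the bottom; red is called higher, blue lower and grey not called, and the dotted line is the median of all tested genes at 0.23. Elovl6 at 2.85 and Mvd at -1.77 mark the ends of the range, and neighbouring steps lie on both sides of 0.

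**Figure D2:**
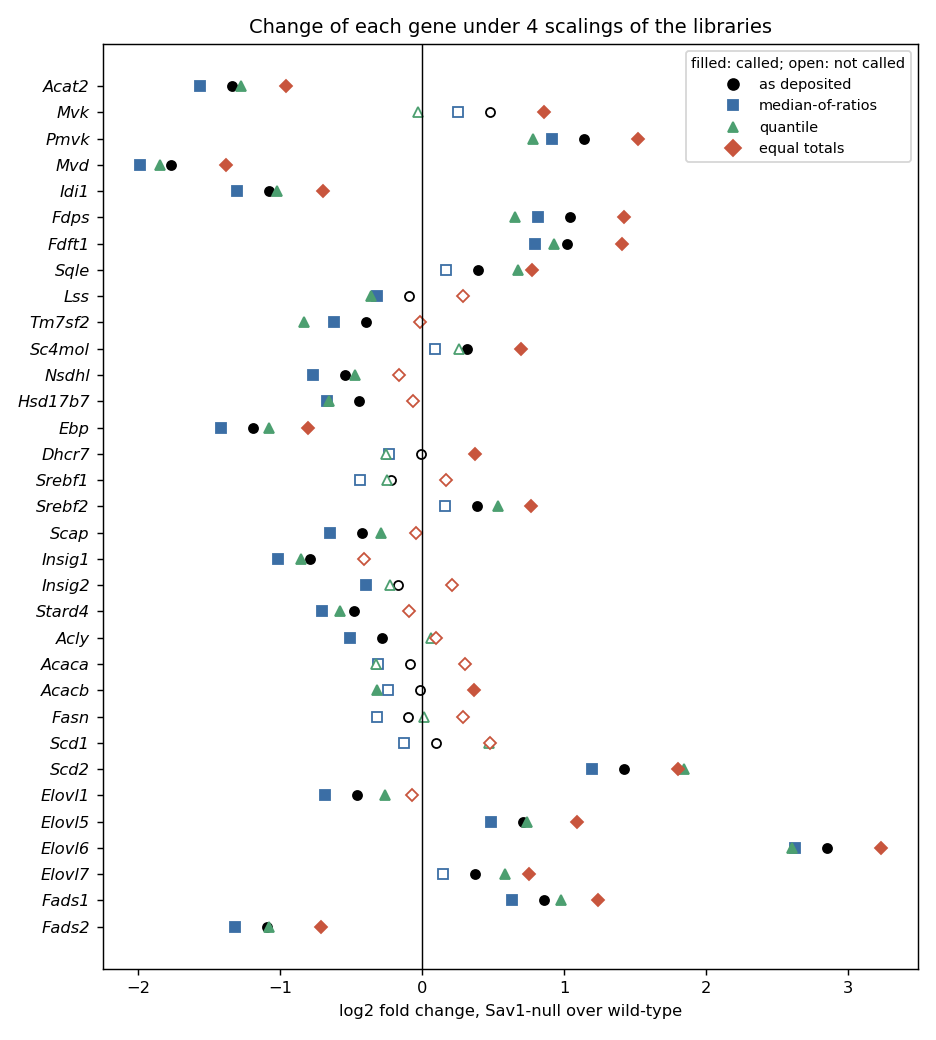
Log2 fold change (Sav1-null over wild-type, x axis) of each of the 33 genes under 4 scalings of the libraries, with filled symbols for called and open symbols for uncalled changes. The 12 genes that kept their call are filled at every scaling on 1 side of 0, and equal library totals lies to the right of the deposited scaling for each gene.

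Within the early sterol steps, which make and activate mevalonate, enzymes moved in opposite directions. Acat2, the cytosolic thiolase that joins acetyl-CoA units, read 2565, 3136, 2474 and 2377 in the wild-type libraries and 1119.7, 944, 1135 and 953 in the Sav1-null libraries. Every Sav1-null library lay below every wild-type library, and the level fell 2.54-fold (log2 fold change -1.34 ± 0.11 SE, limma adjusted p = 6.87e-06). Mvk, mevalonate kinase, read 180.5, 126, 262 and 194 in the wild-type libraries and 257, 237, 224 and 321 in the Sav1-null libraries. The groups overlapped and the difference was not called (log2 fold change 0.48, 95% interval -0.01 to 0.96, limma adjusted p = 0.0740); it was called without wild-type replicate 3, the highest of its group (0.65, limma adjusted p = 0.0179), and also at equal library totals (0.86, 0.00558). Pmvk, phosphomevalonate kinase, read 207, 178, 228 and 201 in the wild-type libraries and 380.2, 433, 399.8 and 612 in the Sav1-null libraries. The groups did not overlap, Sav1-null replicate 4 was the highest, and Pmvk rose 2.20-fold (log2 fold change 1.14 ± 0.16 SE, limma adjusted p = 0.000168).

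Mvd, which decarboxylates mevalonate diphosphate in the step after Pmvk, read 1614, 1535, 1811 and 1825 in the wild-type libraries and 554, 415, 431 and 611 in the Sav1-null libraries. Group means were 1696 ± 144 (SD, n = 4) and 503 ± 94.99 (SD, n = 4), the largest fall of the 33 genes at 3.40-fold with no overlap (log2 fold change -1.77 ± 0.13 SE, limma adjusted p = 5.08e-06). Idi1, the isomerase that balances the 2 isoprenoid building blocks, read 2502, 2280.2, 2105 and 2312 in the wild-type libraries and 1229, 1072, 1176 and 894 in the Sav1-null libraries. It fell 2.12-fold, again without overlap (log2 fold change -1.08 ± 0.11 SE, limma adjusted p = 2.25e-05). Fdps, farnesyl diphosphate synthase, read 177, 193, 229 and 192 in the wild-type libraries and 369, 375, 301 and 651 in the Sav1-null libraries. Its groups did not overlap and it rose 2.06-fold (log2 fold change 1.04 ± 0.22 SE, limma adjusted p = 0.00201), with Sav1-null replicate 4 well above the other Sav1-null libraries. Fdft1, squalene synthase, read 547, 503, 639 and 559 in the wild-type libraries and 898, 1164, 1049 and 1535 in the Sav1-null libraries, and it rose 2.03-fold without overlap (log2 fold change 1.02 ± 0.16 SE, limma adjusted p = 0.000298). Pmvk, Fdps and Fdft1 were thus higher while Mvd and Idi1, which act between Pmvk and Fdps, were lower.

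Some of these values share sequence with other genes. Acat2 has a near-identical neighbour, Acat3, which read 735, 1207, 863 and 703 in the wild-type libraries and 1138, 1165, 1112 and 961 in the Sav1-null libraries and was not called (log2 fold change 0.35 ± 0.16 SE, limma adjusted p = 0.0808). The sum of both was 3515 ± 564 (SD, n = 4) in the wild-type and 2132 ± 160 (SD, n = 4) in the Sav1-null libraries, and the highest Sav1-null sum (2258) lay below the lowest wild-type sum (3080). In GENCODE M21, Fdft1 shares 774 exon bases with Ctsb on the opposite strand and Fdps shares 1124 with the gene model Gm43738 on the same strand. The library kit marks strand, but the strand setting of the counting is not given in the sources used here, so Fdft1 is uncertain to that extent. Fdps is uncertain under any strand setting if the annotation used held Gm43738. Overlaps with other coding genes were smaller for Srebf1 (109 bases, Rai1), Elovl1 (53, Cdc20) and Tm7sf2 (14, Vps51). Scap (785 bases), Lss (381) and Idi1 (323) overlap models not listed as coding on the opposite strand. Scd2 shares 61 bases with a microRNA on the same strand. The counting divides reads between similar sequences, which leaves Acat2, Scd1 and Scd2 uncertain as well. Ctsb read 17135 ± 336 and 18528 ± 1007 (SD, n = 4 each) and was not called (log2 fold change 0.11, limma adjusted p = 0.289).

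The steps from squalene to lanosterol belong to Sqle and Lss. Sqle, squalene monooxygenase, read 2742, 2607, 2613 and 3186 in the wild-type libraries and 4348, 3374, 3157 and 3786 in the Sav1-null libraries. Sav1-null replicate 3 lay just under wild-type replicate 4, and the rise was 1.31-fold (log2 fold change 0.39 ± 0.11 SE, limma adjusted p = 0.0124); the call was lost with median-of-ratios rescaling (0.16, limma adjusted p = 0.256). Lss, lanosterol synthase, read 423, 415, 484 and 451 in the wild-type libraries and 368, 412, 375 and 518 in the Sav1-null libraries. The groups overlapped, and the log2 fold change of -0.10 (95% interval -0.37 to 0.18, limma adjusted p = 0.503) was not called, although it was called lower with median-of-ratios rescaling (-0.32, 0.0498) and quantile normalization (-0.36, 0.0338).

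The enzymes that trim lanosterol to cholesterol were called in both directions. Sc4mol, the methyl sterol oxidase, read 943, 817, 939.7 and 841 in the wild-type libraries and 974, 1128, 1065 and 1241 in the Sav1-null libraries. It rose 1.24-fold without overlap (log2 fold change 0.31 ± 0.09 SE, limma adjusted p = 0.0140), a call lost with median-of-ratios rescaling (0.09, limma adjusted p = 0.437) and quantile normalization (0.26, 0.0524). Nsdhl, which acts with it on the same methyl groups, read 2147, 1825, 1911 and 2012 in the wild-type libraries and 1504, 1379, 1425 and 1127 in the Sav1-null libraries. It fell 1.46-fold without overlap (log2 fold change -0.54 ± 0.10 SE, limma adjusted p = 0.00101) and was not called with equal library totals (-0.16). Hsd17b7, the ketone reductase of that complex, read 697, 576, 562 and 588 in the wild-type libraries and 417, 399, 566 and 406 in the Sav1-null libraries, and Sav1-null replicate 3 reached into the wild-type range. It fell 1.36-fold (log2 fold change -0.45 ± 0.13 SE, limma adjusted p = 0.0123), also not called with equal library totals (-0.06).

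Ebp, the sterol isomerase that is known to bind tamoxifen, read 2673, 2729, 3054 and 2858 in the wild-type libraries and 1259, 1303, 1449.7 and 986 in the Sav1-null libraries. It fell 2.28-fold without overlap (log2 fold change -1.19 ± 0.12 SE, limma adjusted p = 1.93e-05). Tm7sf2, a sterol reductase, read 268, 287, 359.8 and 332 in the wild-type libraries and 210.0, 226, 225 and 283 in the Sav1-null libraries, with Sav1-null replicate 4 above wild-type replicate 1. It fell 1.32-fold (log2 fold change -0.40 ± 0.14 SE, limma adjusted p = 0.0252), but the call was lost with equal library totals (-0.02) and when wild-type replicate 3 or 4 or Sav1-null replicate 1, 2 or 3 was left out (limma adjusted p = 0.0571 to 0.0734). Dhcr7, the reductase of a last step to cholesterol, read 487, 452, 506 and 379.7 in the wild-type libraries and 502, 412, 394 and 508 in the Sav1-null libraries. The groups overlapped throughout (log2 fold change -0.01, 95% interval -0.29 to 0.28, limma adjusted p = 0.954), while equal library totals turned the direction and called it higher (0.37, 0.0305). Counted together, 5 of the 15 sterol enzymes were higher (33.3%) and 7 lower (46.7%), beside 43.9% and 25.2% of all tested genes. Their median log2 fold change was -0.10, beside 0.23 for all tested genes. Equal library totals turned the counts to 7 higher and 4 lower with a median of 0.29, beside 0.61 for all tested genes.

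**Figure D3:**
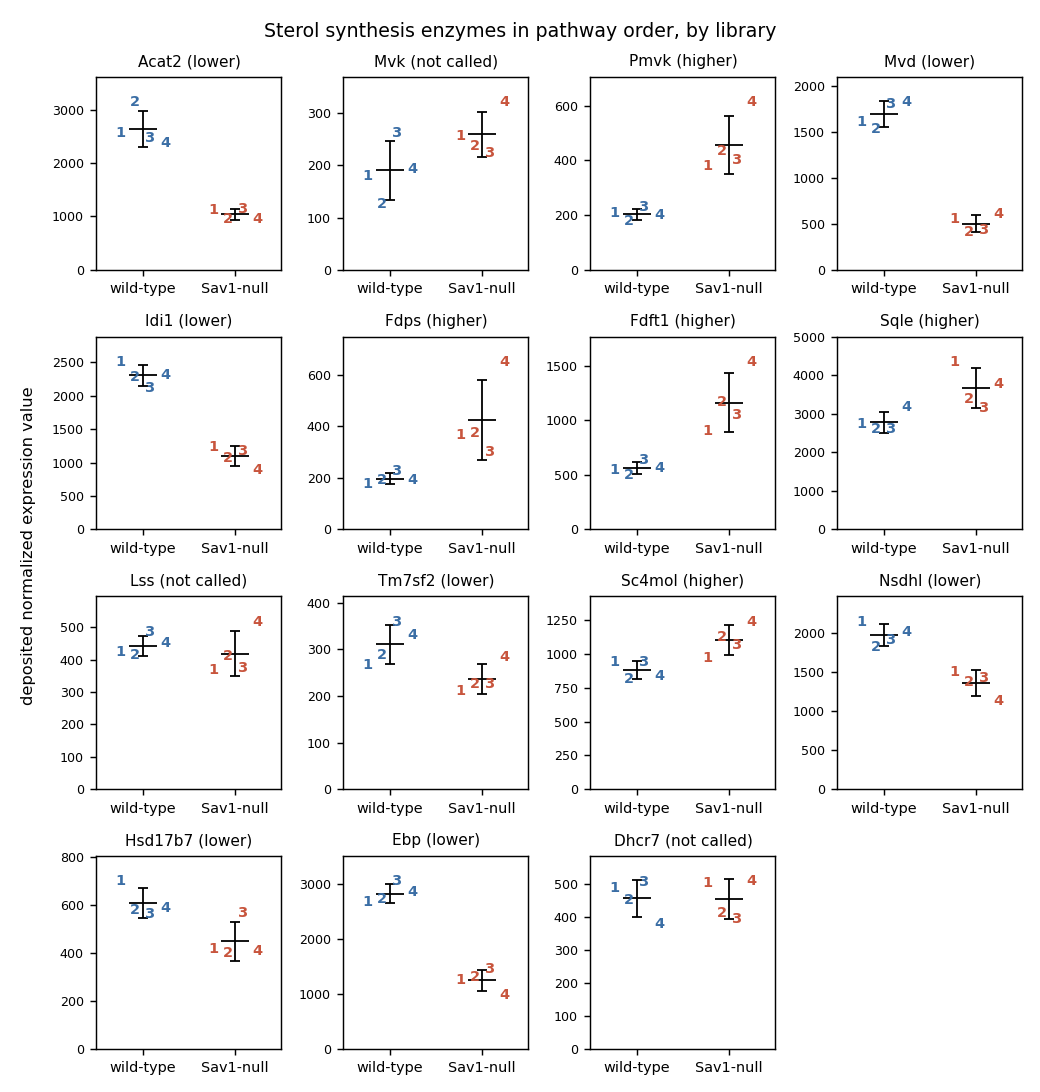
Deposited normalized expression value (y axis, from 0) of the 15 sterol enzymes in each library, with digits giving the replicate number, horizontal bars the group mean and error bars the SD (n = 4). Acat2, Mvd, Idi1 and Ebp lie lower and Pmvk, Fdps and Fdft1 higher in the Sav1-null libraries without overlap, and Lss and Dhcr7 overlap.

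Among the SREBP regulators, 1 of 5 was higher (20%) and 2 were lower (40%), beside 43.9% and 25.2% of all tested genes. These counts became 0 and 3 with median-of-ratios rescaling and 1 and 0 with equal library totals. Srebf1, which encodes the factor tied mainly to fatty acid genes, read 827, 944, 1547 and 1245 in the wild-type libraries and 972, 824, 678 and 1516 in the Sav1-null libraries. It varied widely within both groups and was not called (log2 fold change -0.22, 95% interval -0.81 to 0.38, limma adjusted p = 0.483). Srebf2, which encodes the factor tied mainly to sterol genes, read 1689, 1531, 2033 and 1874 in the wild-type libraries and 2142, 2277, 1952 and 3013 in the Sav1-null libraries. Sav1-null replicate 3 fell inside the wild-type range, and the 1.31-fold rise (log2 fold change 0.39 ± 0.14 SE, limma adjusted p = 0.0348) was lost with median-of-ratios rescaling (0.16, limma adjusted p = 0.367) and without wild-type replicate 1, 2 or 4 or Sav1-null replicate 2 (limma adjusted p = 0.0523 to 0.0948). Scap, the escort protein, read 2078, 2161, 2641 and 2453 in the wild-type libraries and 1791, 1618, 1607 and 1914 in the Sav1-null libraries. It fell 1.34-fold without overlap (log2 fold change -0.43 ± 0.10 SE, limma adjusted p = 0.00363), but was not called with equal library totals (-0.04).

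Insig1, the retention protein whose gene is itself an SREBP target, read 1085, 1192, 1632 and 1359.8 in the wild-type libraries and 714, 621, 1081 and 666 in the Sav1-null libraries. Every Sav1-null library lay below every wild-type library, Sav1-null replicate 3 only just, and it fell 1.73-fold (log2 fold change -0.79 ± 0.19 SE, limma adjusted p = 0.00410); with equal library totals the fall was no longer called (-0.41, limma adjusted p = 0.0627). Insig2, the other retention protein, read 1144, 1147, 1089 and 1034 in the wild-type libraries and 1068, 1004, 1099 and 778 in the Sav1-null libraries. The groups overlapped (log2 fold change -0.17, 95% interval -0.42 to 0.08, limma adjusted p = 0.198), and it was called lower with median-of-ratios rescaling (-0.40, 0.00780). Stard4, which carries cholesterol between membranes, read 1000.2, 941, 1144 and 1001 in the wild-type libraries and 827, 752, 807 and 566 in the Sav1-null libraries. It fell 1.39-fold without overlap (log2 fold change -0.48 ± 0.13 SE, limma adjusted p = 0.00756) and was not called with equal library totals (-0.10).

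Of the 4 genes Acly, Acaca, Acacb and Fasn, 1 was called with the deposited scaling and all 8 libraries, beside 69.1% of all tested genes. Acly, which makes cytosolic acetyl-CoA from citrate, read 4826, 4276, 4455 and 4845 in the wild-type libraries and 3998, 3782, 3807 and 3514 in the Sav1-null libraries. It fell 1.22-fold without overlap (log2 fold change -0.28 ± 0.08 SE, limma adjusted p = 0.00766), but the direction turned, uncalled, with quantile normalization (0.06, limma adjusted p = 0.456) and at equal library totals (0.10, 0.227). Acaca, the cytosolic acetyl-CoA carboxylase, read 479, 520.2, 437 and 489.7 in the wild-type libraries and 433, 419, 397 and 584 in the Sav1-null libraries. It was not called (log2 fold change -0.08, 95% interval -0.37 to 0.21, limma adjusted p = 0.576), and Sav1-null replicate 4 was above all other libraries. Acacb, the mitochondrial form that restrains fatty acid oxidation, read 384, 341, 339 and 422 in the wild-type libraries and 348, 382, 380.0 and 351 in the Sav1-null libraries. It was not called either (-0.02, 95% interval -0.24 to 0.21, limma adjusted p = 0.877), whereas quantile normalization called it lower (-0.32, 0.0222) and equal library totals higher (0.36, 0.00683).

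Fasn, fatty acid synthase, read 1699, 1897, 1856 and 2061 in the wild-type libraries and 1565, 1489, 1559 and 2593 in the Sav1-null libraries. With all 8 libraries it was not called (log2 fold change -0.10, 95% interval -0.48 to 0.28, limma adjusted p = 0.625). Sav1-null replicate 4 decides that value, since without it Fasn was called lower (-0.29, limma adjusted p = 0.00602). Scd1, the stearoyl-CoA desaturase of liver and fat, read 2324, 5622, 4944 and 4126 in the wild-type libraries and 6794, 2567, 6760.4 and 2935 in the Sav1-null libraries. High and low libraries occurred in both groups, and the interval of the log2 fold change ran from -0.77 to 0.96 around 0.09 (limma adjusted p = 0.838). Scd2, its close relative, read 2597, 2784, 2902 and 2757 in the wild-type libraries and 6704, 6056, 5224 and 14041 in the Sav1-null libraries. It rose 2.68-fold without overlap (log2 fold change 1.42 ± 0.26 SE, limma adjusted p = 0.00103), and Sav1-null replicate 4 stood far above the other Sav1-null libraries.

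The elongases moved apart. Elovl6, which lengthens the product of fatty acid synthase, read 189, 182, 195 and 158 in the wild-type libraries and 1341, 1362, 1444 and 1111 in the Sav1-null libraries. The lowest Sav1-null library lay far above the highest wild-type one, with group means of 181 ± 16.4 (SD, n = 4) and 1314 ± 143 (SD, n = 4). The rise of 7.22-fold was the largest of the 33 genes (log2 fold change 2.85 ± 0.11 SE, limma adjusted p = 2.91e-07), above the log2 fold change of 95.5% of all tested genes. Elovl5, which lengthens polyunsaturated chains, read 1075, 1019, 1137 and 978 in the wild-type libraries and 1903, 1804, 1798 and 1402 in the Sav1-null libraries. It rose 1.63-fold without overlap (log2 fold change 0.71 ± 0.10 SE, limma adjusted p = 0.000254). Elovl7, another fatty acid elongase, read 2426, 2758, 1973 and 2141 in the wild-type libraries and 3078, 3144, 3182 and 2573 in the Sav1-null libraries. Sav1-null replicate 4 lay inside the wild-type range, and the 1.29-fold rise (log2 fold change 0.37 ± 0.12 SE, limma adjusted p = 0.0181) was lost with median-of-ratios rescaling (0.15, limma adjusted p = 0.248) and without wild-type replicate 3 (0.0515), wild-type replicate 4 (0.0527) or Sav1-null replicate 2 (0.0507). Elovl1, which builds very long chains, read 2996, 2986, 2878 and 3191 in the wild-type libraries and 2221, 2087, 2108 and 2358 in the Sav1-null libraries. It fell 1.37-fold without overlap (log2 fold change -0.46 ± 0.07 SE, limma adjusted p = 0.000297) and was not called with equal library totals (-0.07).

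The desaturases of polyunsaturated fatty acids went in opposite directions. Fads1 read 1681, 1177, 1299.5 and 1340.2 in the wild-type libraries and 2674, 2301, 2423 and 2486 in the Sav1-null libraries, and it rose 1.81-fold without overlap (log2 fold change 0.86 ± 0.11 SE, limma adjusted p = 0.000105). Fads2, which acts before Fads1 on the same chains, read 1976, 1777, 2310.1 and 2072 in the wild-type libraries and 1213, 744, 1057 and 839 in the Sav1-null libraries. It fell 2.14-fold without overlap (log2 fold change -1.10 ± 0.15 SE, limma adjusted p = 0.000180). Both calls were kept under all 19 alternatives. Counted together, 5 of the 12 fatty acid enzymes were higher (41.7%) and 3 lower (25%), near the 43.9% and 25.2% of all tested genes. Their median log2 fold change was 0.04, which median-of-ratios rescaling turned to -0.19.

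**Figure D4:**
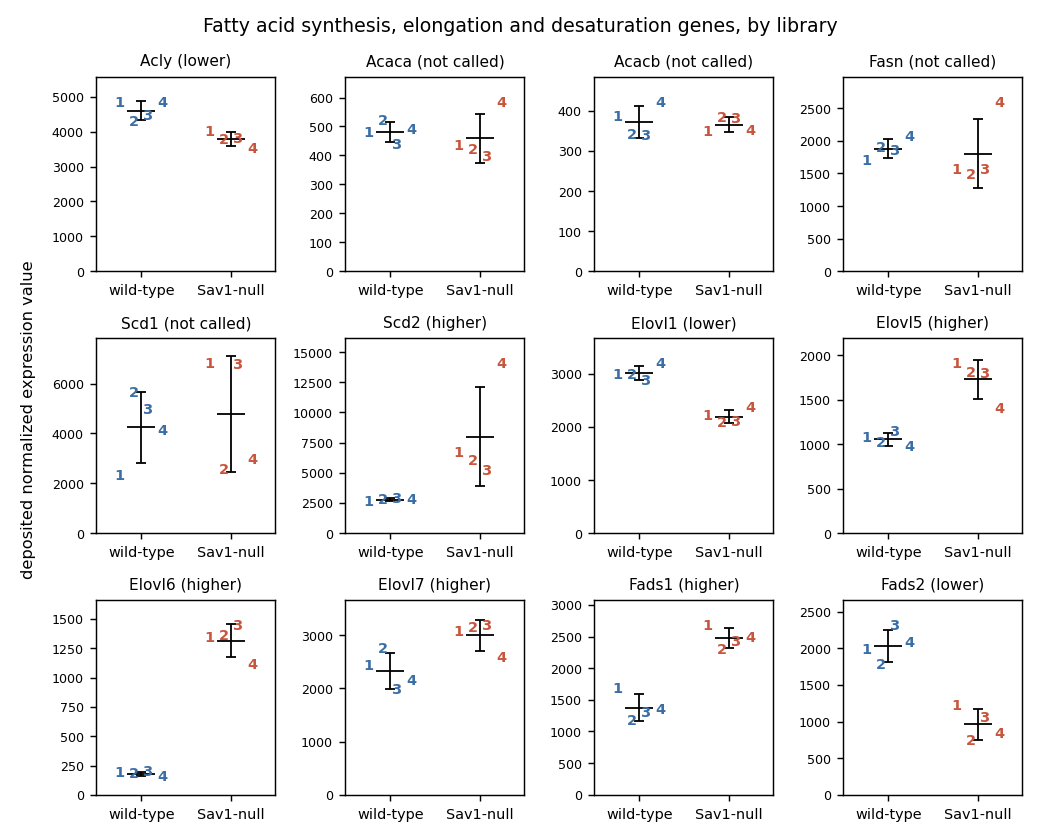
Deposited normalized expression value (y axis, from 0) of the 12 fatty acid enzymes in each library, drawn with replicate digits, group means and SDs (n = 4). Elovl6, Elovl5, Fads1 and Scd2 lie higher and Fads2 and Elovl1 lower in the Sav1-null libraries, and replicate 4 of that group is the highest for Fasn (2593) and Scd2 (14041).

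Ratios of related genes within a library do not move with a single scaling factor per library, and they show unequal change only. The ratio of Fads1 to Fads2 was 0.851, 0.663, 0.563 and 0.647 in the wild-type libraries and 2.20, 3.09, 2.29 and 2.96 in the Sav1-null ones. It was below 1 in 4 of 4 wild-type and above 2 in 4 of 4 Sav1-null libraries, a 3.87-fold difference with no overlap. The two-sided exact permutation test gave p = 0.0286, the smallest that 4 against 4 libraries allow, and 0.114 after Benjamini-Hochberg adjustment over the 6 ratios computed. None of the 6 passed 0.05 after adjustment and 1 did so without it. With that smallest p, 1 separated ratio alone could not pass after adjustment over 6, so this outcome decides nothing. Fads1 and Fads2 each separated the groups without overlap, in opposite directions. The separation of their ratio, and with it the smallest p, followed from those values and adds no further evidence. The ratio of Scd2 to Scd1 was 1.12, 0.495, 0.587 and 0.668 in wild-type libraries against 0.987, 2.36, 0.773 and 4.78 in Sav1-null ones. It was highest in Sav1-null replicates 4 and 2 and overlapped otherwise (exact p = 0.0857, adjusted 0.129).

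The regulator ratios each overlapped in part. Insig1 over Insig2 was 0.948, 1.04, 1.498 and 1.31 against 0.669, 0.619, 0.983 and 0.857, lower by 0.62 on the log2 scale (exact p = 0.0571, adjusted 0.114). Srebf2 over Srebf1 was 2.04, 1.62, 1.31 and 1.505 against 2.20, 2.76, 2.88 and 1.99, higher by 0.60 on the log2 scale (exact p = 0.0571, adjusted 0.114). Elovl7 over Elovl5 differed by -0.34 on the log2 scale (exact p = 0.114, adjusted 0.137), and Acacb over Acaca by 0.07 (exact p = 0.657, adjusted 0.657).

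**Figure D5:**
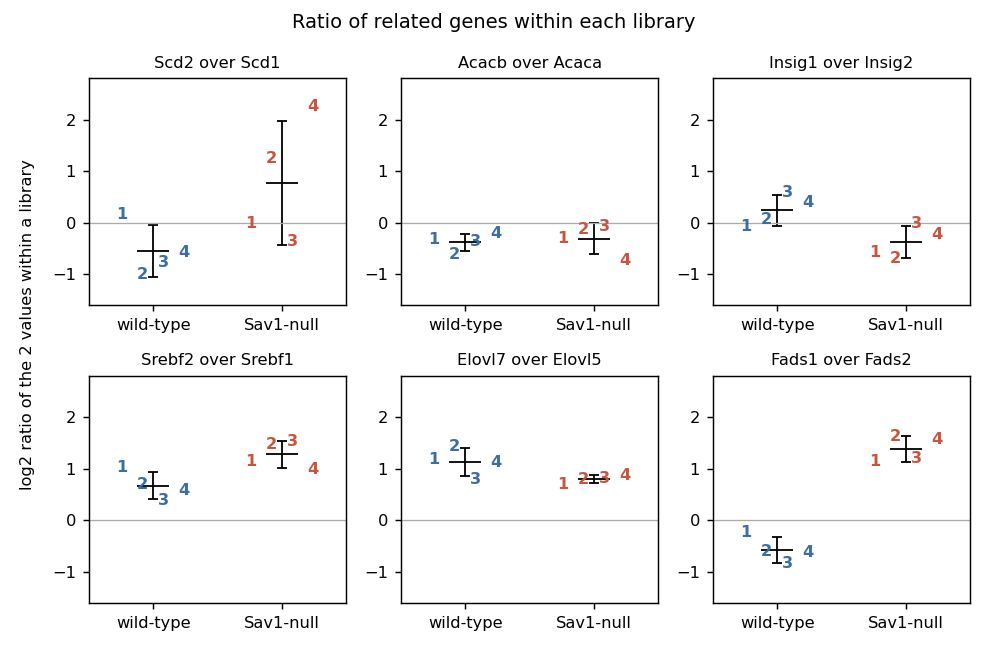
Ratio of related genes within each library (log2 ratio, y axis), with a digit for each replicate, for the 6 ratios computed, bars for the mean and error bars for the SD (n = 4). Only for Fads1 over Fads2 do the groups separate, with wild-type libraries below 0 (ratios of 0.563 to 0.851) and Sav1-null libraries above it (2.20 to 3.09).

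Single libraries stood out over these genes. Wild-type replicate 3 was the highest of its group for 17 of the 33 genes (51.5%) against 26.7% of all tested genes, among them Srebf1, Srebf2, Scap and Insig1. Wild-type replicate 2 was the lowest for 13 (39.4%) against 20.8%, and Sav1-null replicate 2 the lowest for 9 (27.3%) against 10.8%. Sav1-null replicate 4 was the highest of its group for 16 (48.5%) against 38.4% of all tested genes, among them Srebf1, Srebf2, Fdps, Fdft1, Fasn and Scd2, and the lowest for 9 (27.3%) against 42.8%. It also had the lowest sum of proximal tubule markers, 53904 against 98614 to 168462 in the other 3 Sav1-null libraries. Without it, the counts over the 33 genes were 11 higher and 14 lower. More of all tested genes were then called as well, in each direction, so the change in these counts is no result about the pathway.

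Other genes of the same routes were also counted. Of 104 further genes in 7 lists, 94 were tested, of which 22 were higher (23.4%) and 45 lower (47.9%), with a median log2 fold change of -0.25; equal library totals gave 43 higher and 29 lower. The 71.3% called in either direction is near the 69.1% of all tested genes, and the counts of the lists below are descriptions beside that background. Among 7 tested sterol enzymes outside the 33 genes, 2 were higher and 4 lower. Cyp51, lanosterol demethylase, read 7328, 7648, 7271 and 6782 in the wild-type libraries and 2817, 1978, 2953 and 1715 in the Sav1-null libraries and fell 3.15-fold without overlap (log2 fold change -1.65 ± 0.17 SE, limma adjusted p = 2.52e-05). Acat1, the mitochondrial thiolase, fell 6.96-fold (log2 fold change -2.80 ± 0.14 SE, limma adjusted p = 7.57e-07). In the isoprenoid branch, 2 of 12 were higher and 7 lower, among them Coq2 of ubiquinone synthesis (log2 fold change -0.79 ± 0.07 SE, limma adjusted p = 7.82e-06) and Rabggta, a subunit that prenylates Rab proteins (log2 fold change -1.69 ± 0.08 SE, limma adjusted p = 5.38e-07).

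Of the 11 genes of SREBP processing, 3 were higher and 4 lower. Fbxw7, which marks nuclear SREBP for degradation, rose 1.73-fold (log2 fold change 0.79 ± 0.12 SE, limma adjusted p = 0.000244), and Ubxn8 fell 1.62-fold (log2 fold change -0.70 ± 0.10 SE, limma adjusted p = 0.000244). Of 13 tested genes of sterol uptake and transport, 4 were higher and 5 lower. Scarb1, the HDL receptor, rose 3.10-fold (log2 fold change 1.63 ± 0.13 SE, limma adjusted p = 7.24e-06), Mylip, a ubiquitin ligase of the LXR pathway, rose 2.16-fold (log2 fold change 1.11 ± 0.16 SE, limma adjusted p = 0.000188), and Lipa, lysosomal acid lipase, fell 2.28-fold (log2 fold change -1.19 ± 0.17 SE, limma adjusted p = 0.000200).

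In the list of sterol efflux, esterification and oxysterols, 5 of 11 tested genes were higher and 3 lower. Apoe, a carrier of effluxed cholesterol that macrophages also make, read 745, 789, 1460.3 and 801 in the wild-type libraries and 11779.8, 12856, 13306 and 16808 in the Sav1-null libraries and rose 14.9-fold without overlap (log2 fold change 3.90 ± 0.21 SE, limma adjusted p = 1.17e-06). Nr1h3, the oxysterol receptor LXR-alpha, fell 2.17-fold (log2 fold change -1.12 ± 0.12 SE, limma adjusted p = 3.67e-05). Of 23 tested genes of other lipogenesis, 4 were higher and 14 lower. Me1, the cytosolic malic enzyme that supplies NADPH, fell 5.26-fold (log2 fold change -2.39 ± 0.20 SE, limma adjusted p = 8.04e-06), and Acsl4, an acyl-CoA synthetase for polyunsaturated chains, rose 3.04-fold (log2 fold change 1.60 ± 0.13 SE, limma adjusted p = 7.35e-06). Of 17 genes of glycerolipid assembly and lipid droplets, 2 were higher and 8 lower. Dgat2, which makes triacylglycerol, fell 4.09-fold (log2 fold change -2.03 ± 0.19 SE, limma adjusted p = 1.36e-05), and Plin3, a droplet coat protein, rose 1.57-fold (log2 fold change 0.65 ± 0.09 SE, limma adjusted p = 0.000184).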

How the data were processed

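RNA from 8 kidney cortex libraries, 4 wild-type with vehicle and 4 Sav1-null with tamoxifen, was prepared with a kit that selects poly(A) RNA and marks strand, per the labels' protocols. RSEM, SAMtools and Picard 1.64 with build mm9 are named in the submitters' processing notes. The aligner, annotation and strand setting were not given in the sources used here. The authors deposited 1 normalized signal value per gene name and library, scaled so that the 75th percentile of values above 0 is about 1000. Low values were within 0.02 read of whole multiples of 1 read for 92.7% to 93.3% of values, too few for a count model.

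Tests covered the 13677 genes whose mean over 8 libraries reached 10, and 8028 were left out. The model was limma 3.58.1 in R 4.3.3 on log2(value + 1) with group as the term, 6 residual degrees of freedom and an intensity trend. A gene was called at a two-sided Benjamini-Hochberg adjusted p under 0.05 over all tested genes. The pseudocount understates folds of low genes. Ratios within a library used exact permutation tests. The fit was checked on simulated data with independent libraries, few changed genes and no shift between libraries. That check does not reach the dependence on scaling. No replicate pair within a group agreed within counting error (chi-square over its degrees of freedom 12.9 to 114).

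The alternatives were 3 other scalings, pseudocounts of 0.5 and 10, a mean filter of 50 or none, no trend, robust moderation, a replicate block and leaving out each library. A further one, leaving out wild-type replicates 2 and 3 together because their Havcr1 was higher, was chosen after seeing the data. The genes and lists were chosen with earlier results of these data known. All 33 genes with a row are described. From each other list at most 2 called genes per direction, those with the smallest p, could be named, and any other gene is said to be chosen after its values were seen. Some genes counted in these lists are not reported here by name. Intervals are 95% intervals, and those of the model cover the spread between libraries. Promoter letters came from RefSeq windows and exon overlaps from GENCODE M21, both on GRCm38, and no coordinate was converted between builds.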

Additional observations from a re-analysis of the deposited data

Results flagged for a closer look

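Within each group of 4 libraries, the distance of the highest or lowest library from its nearest neighbour was compared with the whole range of the group. In 4 of 66 groups (33 genes in 2 groups) this share passed Dixon's critical value for 95% confidence, where chance gives about 3.3 at 1 in 20.

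Of these, 3 concern Sav1-null replicate 4. For Fasn it read 2593, above the other Sav1-null libraries at 1489 to 1565 (share 0.931). For Scd2 it read 14041, above 5224 to 6704 (share 0.832). For Elovl7 it read 2573, below 3078 to 3182 (share 0.830). The other one is Hsd17b7 in Sav1-null replicate 3, which read 566 while the other Sav1-null libraries read 399 to 417 (share 0.892). Without Sav1-null replicate 4, Fasn was called lower (log2 fold change -0.29, limma adjusted p = 0.00602).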

How the results depend on the processing

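Of the 24 calls among the 33 genes, 12 were kept under all 19 alternatives, 12 under the 3 other scalings, 21 when each library was left out in turn and 19 under the remaining alternatives. Over genes and alternatives, 586 of 627 values kept their direction and their side of the threshold. A change of sign is counted only where the gene was called in at least 1 of the 2 fits.

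The scaling moved most. With median-of-ratios rescaling, 7 of the 33 genes were higher, 3 sterol enzymes and 0 SREBP regulators among them. The median log2 fold change was -0.32 for sterol and -0.19 for fatty acid enzymes. With quantile normalization the medians were -0.36 and 0.27. With equal library totals, 1946 of all tested genes were lower, as were 5 of the 33 genes, with 4 sterol enzymes, 1 fatty acid enzyme and 0 regulators. Other pathway genes then numbered 43 higher and 29 lower, and the medians were 0.29 for sterol and 0.42 for fatty acid enzymes. Direction turned with equal library totals for Dhcr7 (0.37), Acacb (0.36) and Acly (0.10), and with quantile normalization for Acly (0.064). The cause was not tested.

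Without the intensity trend 0 SREBP regulators were higher (Srebf2, limma adjusted p = 0.0527). Leaving out each library in turn gave 0 to 1 SREBP regulators higher, and a median of -0.043 to 0.16 for fatty acid enzymes and of -0.20 (without Sav1-null replicate 4) to -0.049 (without Sav1-null replicate 3) for sterol enzymes. Over the 33 genes it gave 9 to 11 higher and 12 to 14 lower. Without wild-type replicates 2 and 3 together, 3 sterol enzymes and 0 regulators were higher and the fatty acid median was 0.15. Sqle (0.30, limma adjusted p = 0.126), Sc4mol (0.30, 0.0735), Srebf2 (0.38, 0.103), Stard4 (-0.45, 0.0510) and Tm7sf2 lost their calls.

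Nothing in the labels ties libraries of equal replicate number, and correlations over 4 libraries per group cannot decide whether they are paired. Deviations of same-numbered libraries correlated at 0.14, 0.08, -0.17 and 0.13, and not every library correlated best with its own number. With a replicate block, 11 of the 33 genes were higher and 13 lower, and 0 of their calls changed. Over all tested genes the block gave 5927 higher and 3391 lower. With 1 library left out, the exact test of a ratio cannot go below 0.0571. Depth did not limit the 33 genes, since the lowest value, 126 for Mvk, stood far above the 2.34 to 3.09 that 3 reads are worth.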

Other observations

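Further genes of these routes moved in both directions. The 3 named here were chosen after their values were seen. Acss2, which makes acetyl-CoA from acetate, read 7250.1, 6696, 5952 and 4877 in the wild-type libraries and 1912, 1517, 1066 and 379 in the Sav1-null libraries and fell 5.88-fold (log2 fold change -2.56 ± 0.43 SE, limma adjusted p = 0.000565), with Sav1-null replicate 4 the lowest library. Fads3 lies beside Fads1 and Fads2 in the FADS gene cluster. It read 5646, 5558, 5577 and 5555 in the wild-type libraries and 2929, 2136, 2673 and 1910.4 in the Sav1-null libraries and fell 2.35-fold (log2 fold change -1.23 ± 0.13 SE, limma adjusted p = 2.93e-05), in the direction of Fads2. Elovl2, an elongase of polyunsaturated chains, read 516, 254, 238 and 274 in the wild-type libraries and 1366, 869, 970.2 and 557 in the Sav1-null libraries and rose 2.94-fold without overlap (log2 fold change 1.55 ± 0.31 SE, limma adjusted p = 0.00145), in the direction of Elovl5.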
